A study of Mus musculus with 12 samples.

Results

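RNA was sequenced from basal-derived prostate organoids that received the mitochondrial pyruvate carrier inhibitor UK5099 together with butyrate, and these are described against organoids that received vehicle. A gene was taken as a member where its mean reached 1 TPM (transcript abundance scaled to the same total in each sample) in either group, which left 14102 of the 24674 tabulated genes, and 10529 of the members were protein coding. Organoids are small three-dimensional cultures, here grown from the basal cells of the prostate epithelium. In the labels the tissue is prostate, the genotype Wildtype and the strain C57BL/6 for each sample, and the 4 treatments are Vehicle, UK5099, Butyrate and UK5099 + Butyrate with 3 samples each. The labels give no dose or duration, nor whether replicates came from separate mice or cultures, so the p-values measure only the spread between these samples, which may be technical. In bulk RNA, fewer cells of a type and less RNA per cell cannot be told apart.

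Prostate epithelium is made of basal cells, which carry keratins 5 and 14 and the transcription factor p63, and luminal cells, which carry keratins 8 and 18 and do the secreting. UK5099 is a small molecule that inhibits the mitochondrial pyruvate carrier, a complex of the inner membrane. Butyrate is a short-chain fatty acid that inhibits histone deacetylases. Stratified epithelia such as epidermis take another path, in which basal cells leave the basement membrane, change their keratins and build a cornified envelope, a sheet of proteins crosslinked by transglutaminases under the cell membrane.

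The labelled cell type was checked against its markers. Krt5, a defining basal keratin, had 1851, 1855 and 1838 TPM in the vehicle samples, and the luminal keratin Krt8 had 929, 927 and 894 TPM there. Markers of other cells were scarce. Of 5 immune genes found in the table, 4 were under 1 TPM in both groups, among them Ptprc, the pan-leukocyte marker, with means of 0.00142 TPM in vehicle and 0.000268 TPM in the combination. The fifth, Cd68, a lysosomal protein best known from macrophages, rose from 24.8, 24.1 and 23.8 TPM to 97.1, 91.6 and 86.4 TPM, and the summed level of the immune list, nearly all Cd68, went from between 23.99 and 25.1 TPM to between 87.05 and 97.7 TPM. The 6 endothelial genes summed to between 0.701 and 0.839 TPM in vehicle and between 1.65 and 1.996 TPM in the combination, and the 9 fibroblast and smooth muscle genes to between 2.53 and 2.61 TPM and between 2.34 and 2.75 TPM. Sums were between 2.14 and 2.399 TPM and between 0.919 and 1.54 TPM for 2 secretory genes, and between 0.536 and 3.06 TPM and between 0.309 and 0.854 TPM for 4 erythroid genes. The part of such cells in the results below was not tested.

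Depth lay between 33252102 and 43499092 fragments per sample. Differences are given as coefficients, the combination minus vehicle difference of mean log2(TPM + 1) fitted with limma, with their standard error (SE), and a gene was called at an adjusted p under 0.01 with a coefficient past 1 in size. A pseudocount of 1 understates the change of genes with low TPM. The deposited TPM carried a shift. The median coefficient over all members was -0.41 as deposited and -0.04 once each sample was divided by the median ratio of its genes to their mean over samples (median of ratios), which is called scaling from here on. Nuclear protein-coding genes held 40.2% ± 0.401 of TPM in vehicle and 34.5% ± 0.525 in the combination (SD, n = 3). Mitochondrial genes held 13.3% ± 0.555 and 18.1% ± 0.736, and pseudogenes a mean of 42.3% and 43.8%. Shares of fragments were unlike these, with means of 89.5% and 85.6% for nuclear protein-coding genes and 5.78% and 7.45% for pseudogenes. Counts are therefore given on both scales, and a gene is said to have risen or fallen where it was called in the same direction on both.

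Combination replicate 1 stood apart from its group. Its fragment counts gave a mean chi-square per gene of 7.75 and 7.25 against replicates 2 and 3, which gave 1.85 against each other, while pairs within the other groups gave 1.84 to 3.63. It was the highest of the 3 combination samples in 62.4% of the genes that rose and in 30% of all members. Without it 1528 genes were called, and 1482 of the 1585 called with it kept call and direction.

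On the deposited scale 442 members were higher in the combination than in vehicle and 1143 were lower, which is 3.13% and 8.11% of the members and 1.79% and 4.63% of all genes tested. After scaling the counts were 719 and 410, so the share of higher genes among the called went from 27.9% to 63.7%. A total of 442 genes (3.13% of the members) were higher and 410 (2.91%) lower on both scales, and in each of these 852 the 3 combination samples did not overlap with the 3 vehicle samples, as was so for 83.3% of all members. The other 733 genes that were lower on the deposited scale were not called after scaling. The 1 TPM limit selects on the measured levels, since a gene under 1 TPM in vehicle became a member only by being high in the combination, and the reverse. Through the combination alone 630 genes became members, of which 173 rose, and through vehicle alone 1179, of which 142 fell. Of the 12293 genes at 1 TPM or more in both groups 269 rose (2.19%) and 268 fell (2.18%). Counts and medians over the members of a list carry this selection and describe those members. Of the genes called on the deposited scale with a coefficient past 2 in size, 150 were higher and 137 lower, and past 4 there were 31 higher and 7 lower. An adjusted p under 0.01 alone, with no limit on the coefficient, was reached on the deposited scale by 10543 members, 8894 of them lower. Counts of list members by unadjusted p, given below, carry the same shift. Just inside the 1 TPM limit were Pus7l, with means of 1.00 TPM in vehicle and 0.845 TPM in the combination, and Tecpr2, with 1.00 and 0.710 TPM. Just outside it were Ppih, with 0.999 and 0.523 TPM, and Fst, with 0.267 and 0.999 TPM.

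**Figure D1:**
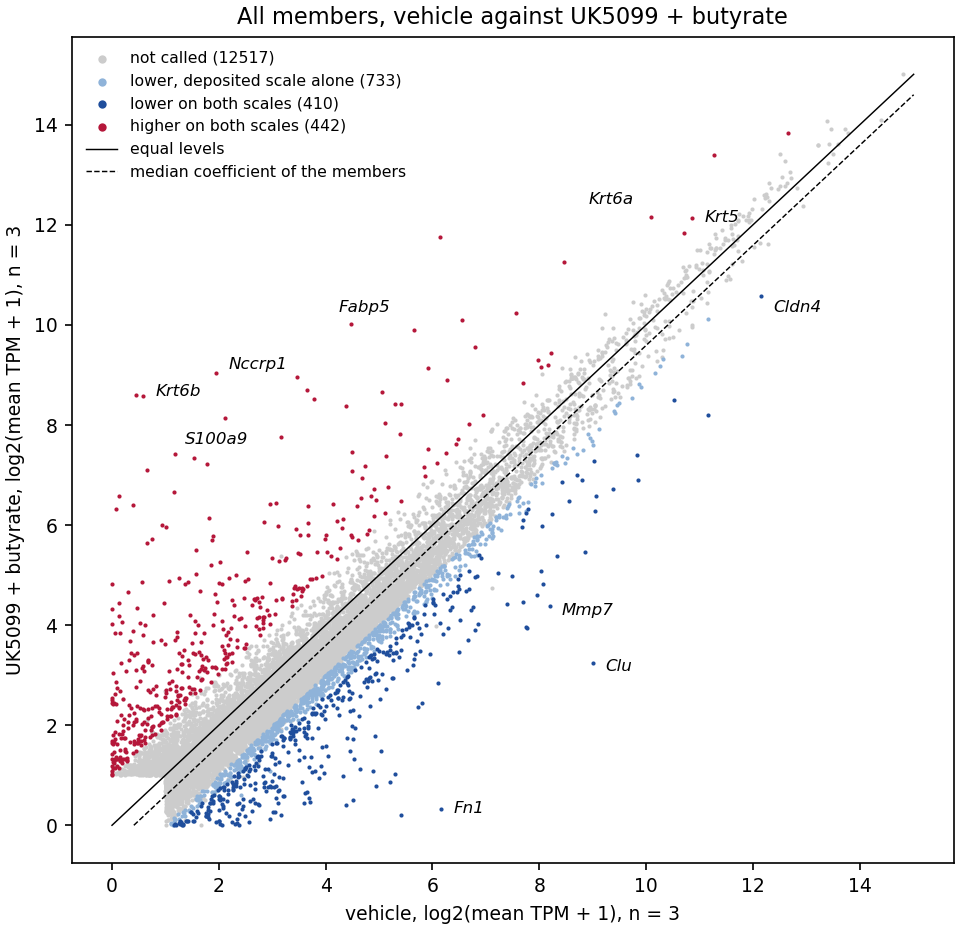
Mean level of each of the 14102 members in vehicle (x axis) and UK5099 + Butyrate (y axis), both as log2(mean TPM + 1) with n = 3 per group. The solid line marks equal levels and the dashed line the median coefficient of -0.41, and the empty corner at low values comes from the 1 TPM limit. The 442 genes higher on both scales reach from absent to abundant vehicle levels, and the 733 genes lower on the deposited scale alone lie in a band next to the uncalled genes.

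Most genes of squamous differentiation rose. Of 50 genes of the cornified envelope and squamous differentiation list found in the table, 41 were members, and 34 of the 41 rose by limma. Of these members 14 were under 1 TPM in vehicle and had entered through the combination alone, where they were high, and 13 of the 14 rose, so the limit raises the share. Of the other 27, at 1 TPM or more in both groups, 21 rose (77.8%), beside 2.19% of all such genes. With only genes whose mean over the 12 samples was at least 1 TPM, 27 members of the list were called. None fell, while 0 were lower by voom, limma's method for counts, on fragments recovered from the TPM. An unadjusted p under 0.05 was found for 39. The median coefficient was 2.50 as deposited and 2.89 after scaling over the 41 members, and 2.03 and 2.34 over all 50 genes found, including the 9 under 1 TPM in both groups. Without combination replicate 1, 33 of the 34 were still called. The list was put together with earlier results of these data known, so its direction is a description and not independent evidence.

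Genes of the epidermal differentiation complex on chromosome 3 were among them. Rptn encodes repetin, a precursor of the envelope. It had 0.0526, 0.0271 and 0.0835 TPM in vehicle and 98.6, 69.9 and 68.5 TPM in the combination (6.23, SE 0.16, adjusted p = 9.2e-10). Each combination sample lay far above the vehicle samples, which held almost no fragments of it. Crnn, encoding cornulin, rose from 13.2, 12.4 and 12.8 TPM to 413, 338 and 343 TPM (4.72, SE 0.10). Sprr1a, a small proline-rich protein that is crosslinked into the envelope, went from 356, 355 and 345 TPM to 2984, 2133 and 2191 TPM (2.77, SE 0.12). Replicate 1 was the highest combination sample for each of these genes, and none of the vehicle samples reached any of them. Ivl, encoding involucrin, an early scaffold of the envelope, rose from 35.4, 33.6 and 33.2 TPM to 187, 153 and 159.8 TPM (2.25, SE 0.076). Flg, encoding filaggrin, which bundles keratin filaments late in differentiation, rose from 0.01498, 0.0155 and 0.0178 TPM to 8.91, 6.53 and 6.17 TPM (2.998, SE 0.13).

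The promoters of Sprr1a, Rptn and Crnn are shown because these genes lie in the same complex and rose, and they were picked as ones that hold both motifs looked for in this group. They are the 250 bases before and the first 50 bases of the gene in RefSeq on GRCm38.p6, at chr3:92485832-92486131, minus strand, at chr3:93393449-93393748, plus strand and at chr3:93144539-93144838, plus strand. Capitals mark TATAA, sought on the gene's strand, and TGANTCA, the motif of AP-1 (activator protein 1) factors, which reads the same on both strands.
Sprr1a: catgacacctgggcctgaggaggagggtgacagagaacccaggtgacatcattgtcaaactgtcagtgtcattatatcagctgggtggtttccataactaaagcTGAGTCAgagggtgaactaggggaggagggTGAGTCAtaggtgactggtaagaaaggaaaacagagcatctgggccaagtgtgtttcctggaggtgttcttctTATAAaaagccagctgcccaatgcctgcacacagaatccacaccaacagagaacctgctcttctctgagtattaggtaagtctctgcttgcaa
Rptn: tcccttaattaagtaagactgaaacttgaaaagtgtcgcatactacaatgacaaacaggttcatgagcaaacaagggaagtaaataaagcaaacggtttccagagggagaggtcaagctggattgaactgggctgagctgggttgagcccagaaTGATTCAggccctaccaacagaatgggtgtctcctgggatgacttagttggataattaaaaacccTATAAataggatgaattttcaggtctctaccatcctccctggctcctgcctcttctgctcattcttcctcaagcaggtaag
Crnn: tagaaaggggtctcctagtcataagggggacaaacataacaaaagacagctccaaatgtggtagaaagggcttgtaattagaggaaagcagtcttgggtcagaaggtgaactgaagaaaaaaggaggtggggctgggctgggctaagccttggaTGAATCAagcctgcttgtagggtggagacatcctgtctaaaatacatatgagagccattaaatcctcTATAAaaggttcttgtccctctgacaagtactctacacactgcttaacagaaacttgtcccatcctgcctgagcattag
In Rptn and Crnn the TGANTCA match began 96 bases before the start, and in Sprr1a there were matches that began 146 and 116 bases before it. Of the 28 genes of this list that rose and had a promoter in the table, 13 (46.4%) held TGANTCA, against 5.31% of 8737 members and 7.93% of all 27025 genes with a promoter. TATAA was in 15 of the 28 (53.6%), against 9.44% of members and 18.2% of all. These counts describe letters in a window and not binding.

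Other members of the list serve calcium binding, adhesion and crosslinking. Calm4, an epidermal calmodulin-like protein, had 0, 0.16999 and 0.131 TPM in vehicle and 108, 89.8 and 88.3 TPM in the combination (6.45, SE 0.16). Nccrp1, an F-box-associated protein, rose from 3.01, 2.64 and 2.85 TPM to 676, 441 and 458 TPM (7.07, SE 0.19, adjusted p = 1.0e-09). Its mean was 185-fold higher with all 3 combination samples and 159-fold higher without replicate 1. Krtdap, the keratinocyte differentiation-associated protein, went from 1.23, 1.56 and 0.936 TPM to 106, 97.3 and 98.3 TPM (5.51, SE 0.087), and Ly6g6c, a GPI-anchored Ly6 protein, from 2.17, 1.67 and 1.88 TPM to 194, 143 and 148 TPM (5.80, SE 0.15). Dmkn and Sbsn, which encode the secreted keratinocyte proteins dermokine and suprabasin, rose with coefficients of 5.06 and 4.59.

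Cornifelin (Cnfn), a small protein of the envelope, had no fragment in any vehicle sample, while the combination samples had 23.005, 15.7 and 18.5 TPM. Set against a floor of 3 fragments per library, which was worth between 0.171 and 0.222 TPM for this gene, it was at least 85.8-fold higher. The crosslinking enzyme transglutaminase 1 (Tgm1) rose from 3.08, 3.01 and 2.65 TPM to 22.6, 20.2 and 20.6 TPM (2.50, SE 0.059). Transcription factors of the programme rose as well, with coefficients of 2.72 for Zfp750 and 2.08 for Ovol1. The 7 members of the list that were not called were Sprr2e, Ppl, Pglyrp3, Sult2b1, Grhl1, Grhl3 and Hal. Of these, Grhl1 and Grhl3, Grainyhead-like factors of the epidermal barrier, had coefficients of -0.0028, SE 0.052, and 0.36 after scaling, and of 0.35, SE 0.066, and 0.72 after scaling.

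Most suprabasal keratins rose. Of the 12 found, 10 were members, 8 rose and 1 fell, with a median coefficient of 1.99 as deposited and 2.39 after scaling. Of the 8 at 1 TPM or more in both groups 7 rose (87.5%), beside 2.19% of all such genes. Krt6b, a keratin of stressed and fast-renewing epithelia, had 0.472, 0.391 and 0.602 TPM in vehicle and 443, 350.0 and 358 TPM in the combination (8.01, SE 0.094, adjusted p = 1.7e-11). For this gene 0 of 6 low values were whole numbers of fragments, so its level is uncertain. Whether its reads were divided with other genes was not tested. Krt16 rose from 48.4, 48.7 and 51.2 TPM to 1024, 928 and 929 TPM (4.25, SE 0.052), and Krt6a from 1102, 1099 and 1068 TPM to 5051, 4318 and 4421 TPM (2.07, SE 0.053). Krt13, a keratin of internal stratified epithelia, rose from 10.8, 12.9 and 10.97 TPM to 509.6, 359.9 and 379 TPM (5.04, SE 0.13), and replicate 1 was the highest combination sample for all 4.

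The epidermal keratins of the spinous layer reached lower TPM, a level per genomic span rather than per transcript length. Krt1 had 8.66, 7.93 and 8.27 TPM in the combination against 1.63, 1.28 and 1.52 TPM in vehicle (1.91, SE 0.054). Krt10, its partner, had 42.6, 31.2 and 33.7 TPM against 2.68, 2.43 and 2.799 TPM (3.33, SE 0.11). With UK5099 alone the mean of Krt10 was 118 TPM, above the combination (combination minus UK5099 -1.70, SE 0.11). Krt79 fell from 3.89, 3.57 and 4.001 TPM to 0.817, 0.696 and 0.617 TPM (-1.50, SE 0.056).

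**Figure D2:**
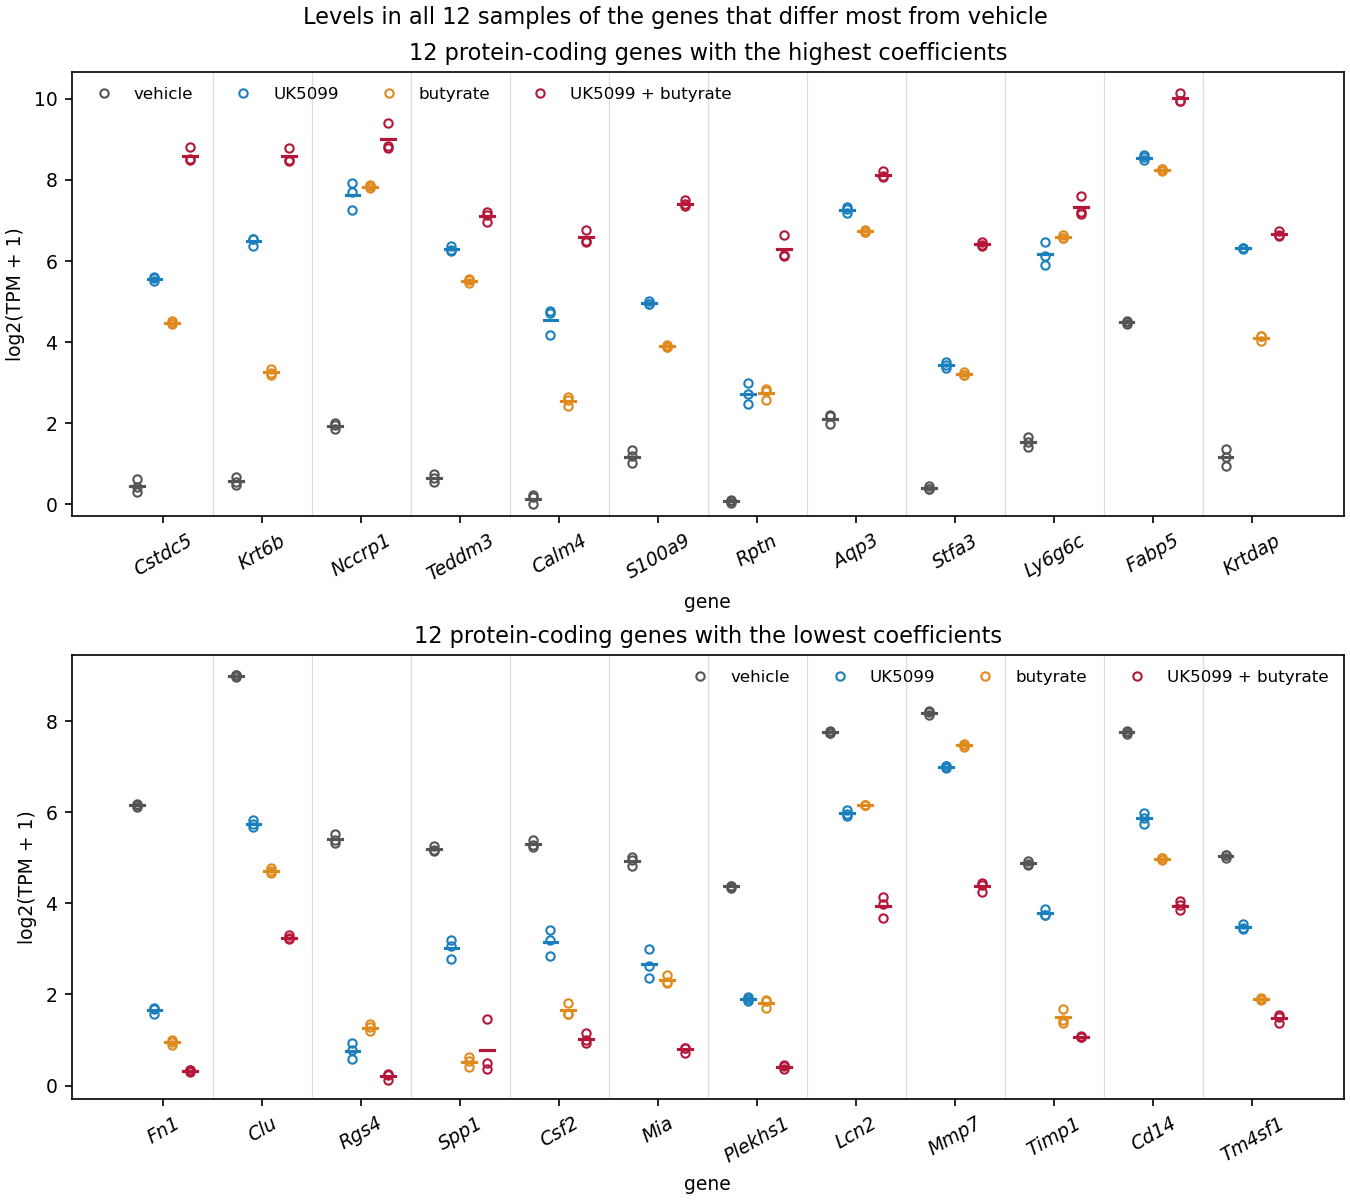
Levels as log2(TPM + 1) (y axis) of the 12 protein-coding genes with the highest and the 12 with the lowest coefficients among those called on both scales whose groups did not overlap (x axis), in all 12 samples. Circles are samples, coloured by treatment, and bars are means of 3. In the upper panel the combination lies above the other treatments for each gene, as in Rptn at a coefficient of 6.23, and in the lower panel it lies below them except for Spp1, where it overlaps with butyrate.

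Further genes with high coefficients came from several families. Cstdc5, of the stefin A family of cysteine protease inhibitors, had 0.241, 0.335 and 0.529 TPM in vehicle and 445, 358 and 364 TPM in the combination (8.15, SE 0.094, adjusted p = 1.6e-11). With 1 of 3 low values whole, its level is uncertain too. Another stefin, Stfa3, whose low values were all whole, rose from 0.373, 0.289 and 0.296 TPM to 87.7, 81.2 and 83.1 TPM (6.01, SE 0.045).

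S100a8 and S100a9 form calprotectin, a calcium-binding antimicrobial protein that stressed keratinocytes make. S100a9 went from 1.27, 1.01 and 1.51 TPM to 181, 162 and 168 TPM (6.24, SE 0.073) and S100a8 from 2.57, 2.505 and 2.27 TPM to 156, 144 and 147 TPM (5.44, SE 0.076). Of the 12 S100 members 4 rose, the other two being S100a7a (2.62, SE 0.072) and S100a4 (1.14, SE 0.097), and 1 fell, S100a1 (-2.44, SE 0.084). Their median was -0.039 on the deposited scale and 0.43 after scaling. Fabp5, the epidermal fatty acid-binding protein, rose from 22.05, 20.7 and 21.4 TPM to 1134, 983 and 979 TPM (5.53, SE 0.056), although 0 of 3 low values were whole. The water and glycerol channel Aqp3 rose from 3.57, 3.54 and 2.92 TPM to 298, 269 and 272 TPM (6.02, SE 0.065). Teddm3 had a coefficient of 6.46 with 1 of 9 low values whole.

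Of 29 oxidative stress members 4 rose, glutathione transferases for the most part, and 1 fell. Gsto1 went from 194, 193 and 181 TPM to 1465, 1042 and 1112 TPM (2.65, SE 0.12). Gsta4 rose by a coefficient of 2.93 and the quinone reductase Nqo1 by 2.86. Gsta1 rose by 4.29, with 1 of 8 low values whole. Gpx3, a secreted glutathione peroxidase, fell (-1.57, SE 0.099). The median of the list was 0.0098 as deposited and 0.46 after scaling.

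The basal list moved in part. Of 23 members 6 rose and none fell by limma (0 were lower by voom), and 22 had an unadjusted p under 0.05. Through the combination alone 2 of them had entered, and 1 of these, Dlk2, rose. Of the 21 at 1 TPM or more in both groups 5 rose (23.8%), beside 2.19% of all such genes. The median coefficient over the 23 members was 0.075 as deposited and 0.54 after scaling. Krt5 had 4532, 4497 and 4514 TPM in the combination (1.29, SE 0.017), and Krt14, its partner in filaments, went from 1651, 1687 and 1691 TPM to 3779, 3561 and 3583 TPM (1.12, SE 0.033). Both lay above vehicle in each sample, and Krt14 had a mean of 5047 TPM with UK5099 alone (combination minus UK5099 -0.47, SE 0.033). Col17a1, a hemidesmosome collagen, rose from 59.5, 58.4 and 59.6 TPM to 174, 183 and 188 TPM (1.60, SE 0.030), and the transcription factor Sox15 from 59.4, 54.2 and 56.9 TPM to 125, 122 and 127 TPM (1.12, SE 0.031). The neurotrophin receptor Ngfr (1.49, SE 0.036) and Dlk2, a relative of the Notch ligands (2.60, SE 0.076), rose from lower TPM.

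Trp63, which encodes p63, had 5.11, 5.28 and 5.298 TPM in vehicle and 8.34, 8.93 and 9.001 TPM in the combination, a coefficient of 0.65 on the deposited scale that did not pass the limit of 1, and 1.05 after scaling, past it. Bcl11b stood just under the limit at 0.98 and past it after scaling at 1.25. The integrins Itga3 and Itgb1, which anchor basal cells to the basement membrane, had -0.96 and -0.49 and -0.84 and -0.37 as deposited and after scaling, and the laminin 332 chains Lama3 and Lamb3 had -0.84 and -0.40, and -0.91 and -0.47. None of these passed the limit. Itgb4 had -0.45 and 0.015 and Itga6 0.29 and 0.74 on the same scales. Krt15 went from 3055, 3072 and 2959 TPM to 2027, 1869 and 1901 TPM, which was not called (-0.65, SE 0.031, and -0.18 after scaling). On the deposited scale Egfr (-0.41), Bnc1 (-0.50), Cav1 (-0.55), Krt17 (0.075), Pdpn (0.16) and Dst (0.41) were not called either, and Tcf7l1, at 0.025, was under 1 TPM in both groups. Jag1, a Notch ligand, was lower on the deposited scale alone (-1.08, SE 0.031, and -0.62 after scaling).

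A part of the luminal list went down. Of 27 members 9 fell and 1 rose on both scales, and 14 were lower on the deposited scale. Of the 26 at 1 TPM or more in both groups 8 fell (30.8%) and 1 rose (3.85%), beside 2.18% and 2.19% of all such genes. Prom1 had entered through vehicle alone, and it fell. The median coefficient over the 27 members was -1.01 as deposited and -0.55 after scaling. Clusterin (Clu), a secreted chaperone, had 515, 514 and 502 TPM in vehicle and 8.48, 8.85 and 8.24 TPM in the combination, 59.9-fold lower (-5.75, SE 0.041, adjusted p = 2.0e-12). The keratin pair fell together, Krt8 to 120.2, 117 and 119 TPM (-2.94, SE 0.028) and Krt18 from 1473, 1489.9 and 1440.3 TPM to 366, 356 and 356 TPM (-2.03, SE 0.018). No combination sample reached a vehicle sample for any of these 3 genes.

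Genes of some junction and surface proteins were among those of the list that fell. Epcam, an epithelial adhesion molecule, went from 531, 546 and 532 TPM to 91.2, 96.98 and 98.01 TPM (-2.48, SE 0.028). The study sorted basal and luminal cells alike as EpCAM positive, so Epcam does not mark luminal cells alone. The claudins Cldn3 (-2.65, SE 0.049) and Cldn4 (-1.57, SE 0.050) seal tight junctions, and Cldn4, from 4646, 4610.0 and 4440.3 TPM to 1662, 1458 and 1482 TPM, lost more TPM than any other protein-coding gene. Prom1, a progenitor surface protein, fell from 7.42, 7.28 and 6.72 TPM to 0.639, 0.713 and 0.733 TPM (-2.26, SE 0.043), and Tspan1 (-2.02, SE 0.088) and Ppp1r1b (-3.53, SE 0.11) completed the 9 genes that fell. The exception was Psca, prostate stem cell antigen, which rose from 117, 121 and 94.1 TPM to 966, 615 and 684 TPM (2.74, SE 0.19).

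A further 5 genes of the luminal list were lower on the deposited scale and not called after scaling. They included Krt7 (-1.29 and -0.83), Cldn7 (-1.18 and -0.72), the transcription factor Ehf (-1.25 and -0.79) and Cdh1, which encodes E-cadherin (-1.01 and -0.55). Among those not called were Krt19 (-0.90), Foxa1 (-0.83), Hoxb13 (-0.68), Cd24a (-0.62), Wfdc2 (-0.45, and 0.016 after scaling) and Grhl2 (-0.41). Ly6a (0.50), Tspan8 (0.52), Krt4 (0.68) and Elf3 (0.78) had values above 0 without a call on the deposited scale, and Krt4 and Elf3 had 1.15 and 1.24 after scaling. Cd38, Spdef and Cldn10 were under 1 TPM in both groups.

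**Figure D3:**
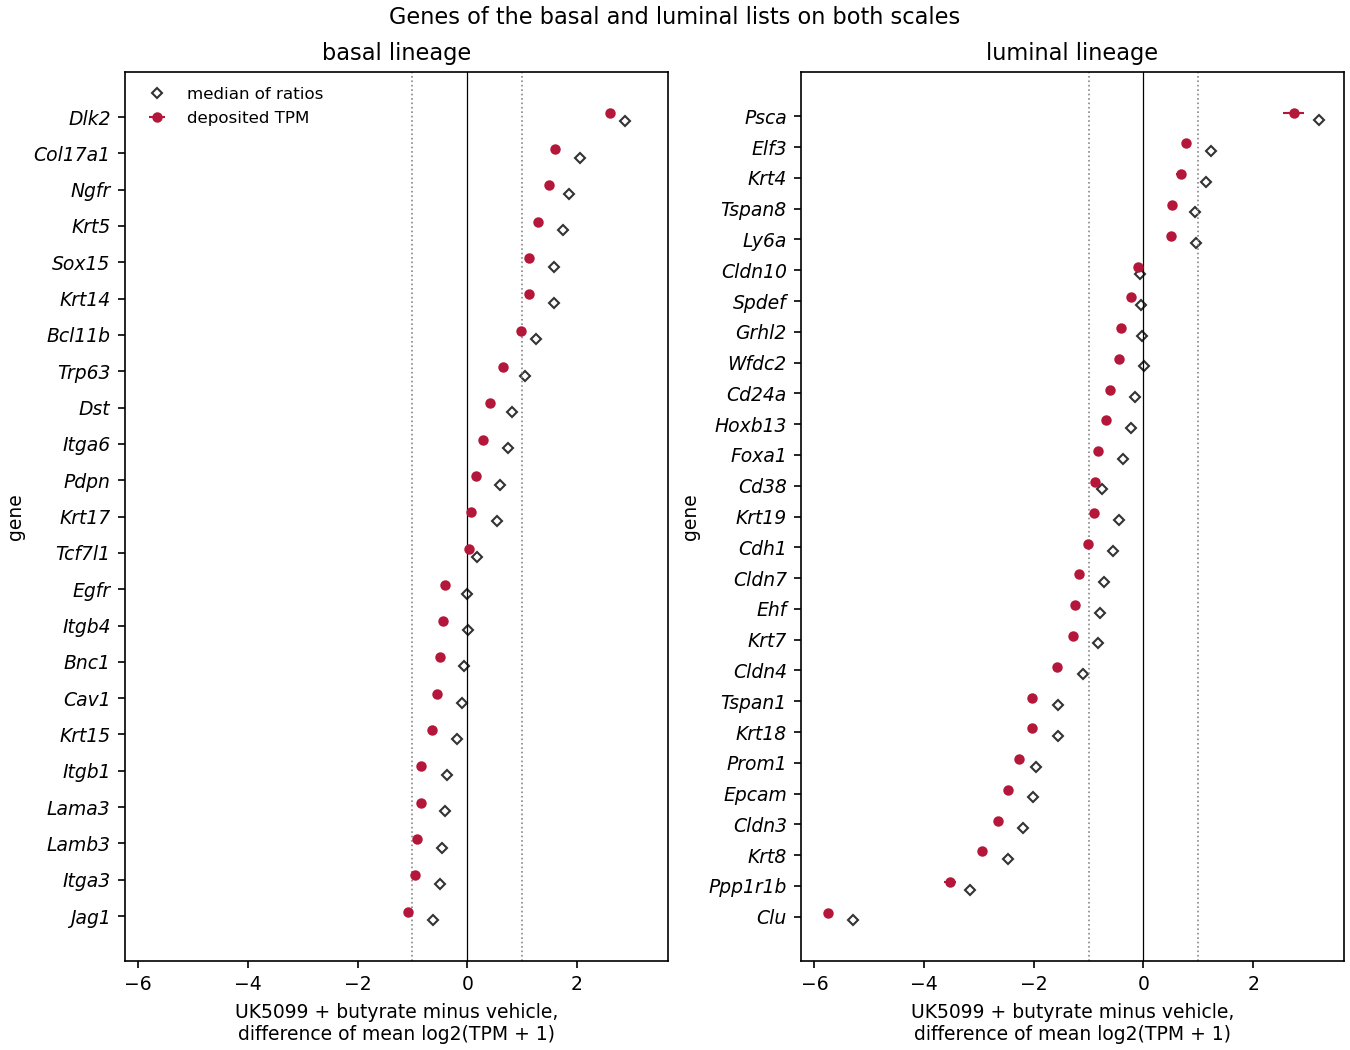
Combination minus vehicle coefficients (x axis, difference of mean log2(TPM + 1)) for genes of the basal list and the luminal list found in the table, on the deposited scale (filled circles with SE) and after median of ratios scaling (open diamonds), with dotted lines at the limit of 1 on either side. Luminal genes from Clu at -5.75 to Cldn4 at -1.57 stay below -1 on both scales, while basal genes lie on both sides of 0.

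Of 10 members of the desmosome list, genes of the junctions that anchor keratin filaments, 3 rose and 1 fell. Dsg3, a desmoglein of stratified epithelia, rose from 19.03, 18.9 and 18.8 TPM to 63.8, 57.6 and 60.9 TPM (1.63, SE 0.046), with Dsc3 (1.27, SE 0.037) and Perp (1.32, SE 0.038). Pkp2, a plakophilin, fell (-1.56, SE 0.025), and Dsg2, the desmoglein of simple epithelia, was lower on the deposited scale alone (-1.27, SE 0.037, and -0.82 after scaling). The other 5 of 10 members were not called. Among 9 protease and inhibitor members, Klk8 (1.34, SE 0.11, with 0 of 12 low values whole), Klk11 (1.07, SE 0.11) and the protease inhibitor Spink5 (1.88, SE 0.091) rose, and the membrane proteases Prss8 (-1.62, SE 0.098) and St14 (-1.56, SE 0.036) fell. Klk11 had no fragment in vehicle, was at least 11.2-fold higher when set against the same floor, and had a coefficient of 0.92 without combination replicate 1, under the limit. Spink5, at 9.92, 8.27 and 8.44 TPM, had a mean of 19.8 TPM with butyrate alone (combination minus butyrate -1.08, SE 0.091).

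Fn1, which encodes the matrix protein fibronectin, had the lowest coefficient of all members called. It had 72.1, 68.2 and 70.2 TPM in vehicle and 0.234, 0.257 and 0.265 TPM in the combination, 278-fold lower (-5.83, SE 0.038, adjusted p = 2.0e-12). Vim, an intermediate filament of mesenchymal cells, fell from 8.19, 8.197 and 7.55 TPM to 0.153, 0.147 and 0.161 TPM (-2.96, SE 0.054), and the matrix glycoproteins Thbs1 (-2.96, SE 0.060) and Tnc (-2.50, SE 0.050) fell as well. Tgfbi, another matrix protein of the epithelial-mesenchymal transition list, rose from 1.02, 0.882 and 0.965 TPM to 20.1, 20.8 and 21.4 TPM (3.48, SE 0.044). In all, 4 of 12 members of this list fell and 2 rose. Fn1 and Vim had entered through vehicle alone and Tgfbi through the combination alone, in each case the group where they were high. Of the 9 at 1 TPM or more in both groups 2 fell (22.2%) and 1 rose (11.1%), beside 2.18% and 2.19% of all such genes.

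Of 16 matrix protease and inhibitor members 9 fell and none rose by limma or by voom, 16 had an unadjusted p under 0.05 in either direction, with a median of -1.35 as deposited and -1.09 after scaling. Through vehicle alone 3 of them had entered, and all 3 fell. Of the 13 at 1 TPM or more in both groups 6 fell (46.2%), beside 2.18% of all such genes. Mmp7, matrilysin, went from 292, 299.8 and 282 TPM to 18.1, 20.9 and 20.2 TPM, 14.8-fold lower (-3.82, SE 0.047, adjusted p = 1.9e-11). The metalloproteinase inhibitor Timp1 went from 27.8, 29.5 and 28.2 TPM to 1.11, 1.101 and 1.11 TPM (-3.81, SE 0.070). Mmp15 (-1.81, SE 0.063), Plaur, the urokinase receptor (-1.67, SE 0.026), and Mmp9 (-1.62, SE 0.062) fell too. Mmp9 had a mean of 4.004 TPM with butyrate alone, below the combination (combination minus butyrate 1.90, SE 0.062). Mmp3 (0.44) and Mmp13 (0.38) were not called.

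The inflammatory list had 12 of 24 members lower and 1 higher on both scales and a median of -1.46 as deposited and -1.002 after scaling. Through vehicle alone 2 of them had entered, and these fell. Of the 22 at 1 TPM or more in both groups 10 fell (45.5%), beside 2.18% of all such genes. Lcn2, a siderophore-binding antibacterial protein, went from 221, 214 and 214 TPM to 11.8, 16.7 and 14.8 TPM (-3.83, SE 0.096). Cd14, the coreceptor for lipopolysaccharide, went from 215, 219.9 and 209.9 TPM to 13.5, 15.5 and 14.6 TPM (-3.80, SE 0.060), and the neutrophil chemokine Cxcl2 from 459.6, 465 and 454 TPM to 38.6, 45.2 and 44.9 TPM (-3.40, SE 0.064). All 3 lay far below vehicle in each combination sample. Spp1, osteopontin, fell (-4.42, SE 0.25) with the widest spread of these genes, since its combination samples had 0.2904, 0.407 and 1.77 TPM. Ceruloplasmin (Cp) had a coefficient of -2.90 and the chemokine Cxcl1 one of -2.78. The alarmin Il33 rose from 30.7, 29.7 and 28.3 TPM to 95.01, 86.3 and 87.3 TPM (1.57, SE 0.041). Csf2, a cytokine outside the list, fell from 40.9, 36.7 and 37.9 TPM to 1.21, 0.924 and 0.996 TPM (-4.27, SE 0.14). Also outside the lists were Rgs4, a brake on G protein signalling, which fell from 39.4, 44.7 and 40.8 TPM to 0.0882, 0.1796 and 0.186 TPM (-5.21, SE 0.089), and the membrane protein Tm4sf1, which fell with a coefficient of -3.56.

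Of 29 members of the interferon-stimulated list 13 fell and 0 rose by limma on both scales (16 and 0 by voom on fragments), 17 were lower on the deposited scale, and the median was -1.22 as deposited and -0.96 after scaling. Of these members 8 had entered through vehicle alone, where they were high, and 6 of the 8 fell, so the limit raises the share. Of the other 21, at 1 TPM or more in both groups, 7 fell (33.3%), beside 2.18% of all such genes. Isg15, a ubiquitin-like protein, went from 19.6, 24.4 and 18.8 TPM to 2.09, 1.35 and 1.92 TPM (-2.97, SE 0.21), and Oasl2, of the oligoadenylate synthetase family, from 11.8, 11.97 and 10.9 TPM to 0.569, 0.572 and 0.637 TPM (-2.98, SE 0.074). Irf7, a transcription factor of the response, went from 37.5, 42.1 and 36.4 TPM to 9.75, 9.97 and 10.2 TPM (-1.85, SE 0.10). The vehicle and combination samples did not overlap for any of the 3. The chemokine Cxcl10 (-2.42, SE 0.12), Ifit3 (-2.01, SE 0.19, with 0 of 12 low values whole) and Dtx3l (-1.89, SE 0.047) fell too. Ifit1 had 3.88, 3.495 and 2.79 TPM in vehicle and 0.139, 0.132 and 0.282 TPM in the combination (-1.88, SE 0.28). Of the 29, 27 were below 0 on both scales, and the exceptions were Oasl1 (0.0038, SE 0.079) and Ifi27 (0.070, SE 0.057).

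The promoters of Isg15 and Ifit1, on GRCm38.p6 at chr4:156200769-156201068, minus strand and at chr19:34640639-34640938, plus strand, are shown as genes of this group picked because they hold the interferon-stimulated response element, sought on either strand as GAAA followed after any 2 bases by another GAAA and marked in capitals.
Isg15: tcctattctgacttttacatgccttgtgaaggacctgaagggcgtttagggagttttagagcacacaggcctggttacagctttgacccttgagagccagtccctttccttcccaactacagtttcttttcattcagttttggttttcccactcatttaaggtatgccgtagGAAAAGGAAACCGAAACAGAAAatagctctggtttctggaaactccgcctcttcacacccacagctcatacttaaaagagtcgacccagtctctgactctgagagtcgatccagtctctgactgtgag
Ifit1: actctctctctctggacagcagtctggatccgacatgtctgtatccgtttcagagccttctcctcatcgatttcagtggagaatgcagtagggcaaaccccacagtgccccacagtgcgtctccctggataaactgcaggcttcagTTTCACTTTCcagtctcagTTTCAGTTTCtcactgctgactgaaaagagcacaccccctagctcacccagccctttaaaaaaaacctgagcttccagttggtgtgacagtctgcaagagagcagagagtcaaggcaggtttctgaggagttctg
Isg15 held 3 overlapping matches between 78 and 57 bases before the start, and Ifit1 held matches that began 104 and 85 bases before it. Of 11 interferon genes that fell and had a promoter in the table, 5 (45.5%) held the motif, against 2.82% of members and 3.49% of all genes with a promoter.

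In the antigen presentation list H2-Ab1, an MHC class II chain, rose from 0.412, 0.412 and 0.511 TPM to 6.28, 6.17 and 6.62 TPM (2.35, SE 0.056). Its mean was 6.44 TPM with butyrate alone, and it was a member only through the combination. Cd74 (-0.34) and Ciita (-0.0025), which also serve MHC class II, were under 1 TPM in both groups. Psmb10, an immunoproteasome subunit, fell from 14.9, 13.7 and 14.5 TPM to 4.18, 5.46 and 4.58 TPM (-1.42, SE 0.088). Tapbp (-1.39 and -0.93), H2-Q4 (-1.33 and -0.89, with 0 of 9 low values whole) and Pdia3 (-1.04 and -0.58), which serve MHC class I, were lower on the deposited scale alone. The other 10 of 15 members were not called.

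Cell cycle calls depended on the scale. All 27 DNA replication members and all 28 mitosis members had coefficients below 0 as deposited, with medians of -0.82 and -0.79, and 26 and 27 of them stayed below 0 after scaling, with medians of -0.40 and -0.34. On the deposited scale 7 and 6 were called lower by limma and on both scales 0 and 0, while 1 and 0 were called lower by voom on fragments and 27 and 28 had an unadjusted p under 0.05. The helicase subunit Mcm2 had 32.8, 32.4 and 32.5 TPM in vehicle and 12.6, 14.1 and 14.3 TPM in the combination (-1.19, SE 0.043, and -0.75 after scaling). Plk1, the mitotic kinase, went from 27.3, 27.97 and 26.4 TPM to 11.5, 11.4 and 11.7 TPM (-1.17, SE 0.036, and -0.73 after scaling). Fen1 (-1.14), Tyms (-1.08, with 0 of 9 low values whole), Mcm6 (-1.07) and Mcm5 (-1.07), which make or copy DNA, and Bub1 (-1.15), Mad2l1 (-1.04), Kif20a (-1.02) and Foxm1 (-1.01), which act in mitosis, had coefficients near the limit. Without combination replicate 1, 2 of the 6 mitosis calls remained. Ccnd1, encoding cyclin D1, was lower on the deposited scale (-1.41, SE 0.022, and -0.95 after scaling), as were Gadd45b (-1.37 and -0.91) and the inhibitor Cdkn1b (-1.01 and -0.56).

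Few genes of pyruvate and lactate handling passed the limit. Of 23 members 2 rose and 0 fell by limma (1 lower by voom on fragments), and the median was -0.24 as deposited and 0.17 after scaling. Gpt, which interconverts alanine and pyruvate, rose from 5.21, 5.38 and 5.43 TPM to 21.8, 22.2 and 21.6 TPM (1.85, SE 0.047). Slc16a1, the monocarboxylate transporter MCT1 that carries lactate, pyruvate and butyrate, rose from 18.1, 18.6 and 18.2 TPM to 43.6, 46.4 and 47.1 TPM (1.27, SE 0.039). With butyrate alone their means were 20.9 and 40.2 TPM.

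The carrier genes themselves, whose product UK5099 blocks, were not called. Mpc1 had 6.69, 6.36 and 7.15 TPM in vehicle and 3.94, 4.41 and 4.69 TPM in the combination (-0.53, SE 0.058, and -0.14 after scaling), with 0 of 12 low values whole, and Mpc2 had 4.15, 3.88 and 3.84 TPM and 2.82, 2.73 and 2.799 TPM (-0.39, SE 0.038, and -0.032 after scaling). The subunits and partners of pyruvate dehydrogenase Pdha1 (-0.51), Pdhb (-0.24), Dlat (-0.59), Pdhx (-0.42) and Dld (-0.54) had values below 0 as deposited, and Pdhb stood at 0.21 after scaling. Of the kinases that inhibit the complex, Pdk1 had 0.31, Pdk2 -0.18, Pdk3 -0.34 and Pdk4 -0.38, with Pdk4 under 1 TPM in both groups, and the phosphatases Pdp1 and Pdp2 had -0.23 and -0.11.

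The lactate dehydrogenase chains Ldha and Ldhb had coefficients of -0.079, SE 0.015, and of -0.62, SE 0.056, with 0 of 12 low values of Ldhb whole, and Ldhd had 0.17. The lactate exporter Slc16a3 had 85.9, 83.5 and 81.7 TPM in vehicle and 104, 106 and 108 TPM in the combination (0.34, SE 0.025), and its chaperone Bsg had -0.42 and 0.044 as deposited and after scaling. Pcx, pyruvate carboxylase, went from 0.691, 0.689 and 0.691 TPM to 2.002, 1.56 and 1.67 TPM, which at 0.70 did not reach the limit. Me1 (-0.80), Me2 (-0.35) and Gpt2 (0.063) were not called, and Slc16a7 and Slc5a8 were under 1 TPM in both groups.

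Among 16 glycolysis members, 20 tricarboxylic acid cycle members and 28 members of the histone acetylation machinery, 0 genes were called by limma in either direction on the deposited scale. Of the same lists 15, 19 and 25 had an unadjusted p under 0.05 on that scale. By limma's adjusted p under 0.01 alone the counts were 13, 17 and 23, beside 10543 of all 14102 members, 8894 of them lower. Counts of this kind carry the shift of the deposited scale and do not set these lists apart. By voom on fragments 2 glycolysis members were higher and 0 lower, with 0 and 0 for the cycle and 0 and 0 for histone acetylation. The medians were 0.068, -0.40 and -0.46 as deposited and 0.52, 0.028 and -0.065 after scaling. Of 26 fatty acid oxidation members Bdh1, a ketone body enzyme, rose (1.05, SE 0.043), while Cpt1a, which lets fatty acids enter mitochondria, was lower on the deposited scale alone (-1.23, SE 0.029, and -0.88 after scaling). Of 29 sterol and fatty acid synthesis members the desaturases Fads1 (-1.04 and -0.59) and Fads2 (-1.23 and -0.79) were lower on the deposited scale alone.

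Genes often raised by histone deacetylase inhibitors went both ways. Of 18 members 4 rose, Krt23 (1.77, SE 0.078), the transcription factor Klf4 (1.24, SE 0.032) and the histone genes H2ac6 (1.23, SE 0.10, with 0 of 12 low values whole) and H2bc4 (1.05, SE 0.065), and H2bc4 stood at 0.97 without combination replicate 1, under the limit. Clu and Ccn2, a matricellular growth factor (-2.95, SE 0.046), fell. H1f0 (-0.35 and 0.11) and Cdkn1a (-0.29 and 0.17), which encode a linker histone and the inhibitor p21, were not called. The median was 0.25 as deposited and 0.71 after scaling.

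In the BMP and TGF-beta list 5 of 23 members fell and 3 rose. Inhba, an activin subunit, fell from 169, 165 and 169.7 TPM to 18.5, 21.7 and 21.5 TPM (-2.97, SE 0.067), and Tgfb3 (-2.43, SE 0.060), Skil (-1.66, SE 0.047), Tgfb1 (-1.46, SE 0.029) and Fstl1 (-1.33, SE 0.044) fell with it. The ligand Bmp3 (1.28) and the targets Id1 (1.27) and Id3 (1.12) rose. In the Notch list, where 1 of 14 members rose and 1 fell, the ligand Dll1 rose (2.12, SE 0.065) and the target Hey1 fell (-2.21, SE 0.14). The EGF receptor ligands Epgn (2.37, SE 0.070) and Ereg (1.31, SE 0.043) rose, 2 of 15 members. In the Wnt list of 23 members the receptor Fzd1 (-1.75, SE 0.044) and the factor Tcf7 (-1.45, SE 0.055) fell while Fzd10 (1.31, SE 0.13) rose, and the ligands Wnt7b (-1.33 and -0.91) and Wnt5a (-1.25 and -0.84) were lower on the deposited scale alone.

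Of 11 members of the retinoid list 8 were not called, 1 rose and 2 fell, and the median was -0.44 as deposited and 0.014 after scaling. Crabp2, which carries retinoic acid to its nuclear receptors, rose from 2.92, 2.58 and 2.42 TPM to 55.7, 47.5 and 49.4 TPM (3.83, SE 0.078). Cyp26b1, which degrades retinoic acid, fell from 12.3, 12.3 and 11.3 TPM to 0.508, 0.412 and 0.442 TPM (-3.16, SE 0.053), and Rdh10, which makes its precursor, fell from 24.8, 25.9 and 25.4 TPM to 6.94, 5.94 and 6.101 TPM (-1.85, SE 0.049). Among 20 AP-1, early response and Kruppel-like factors Egr3 (1.22, SE 0.061) rose with Klf4, and Atf3 (-1.18 and -0.75) and Klf11 (-1.06 and -0.62) were lower on the deposited scale alone. Of 20 integrated stress response members, Slc7a5 (-1.45 and -0.999), Trib3 (-1.12 and -0.72) and Nupr1 (-1.07 and -0.61) were lower on the deposited scale alone. Of 21 neuroendocrine and neuronal genes found in the table, 18 were under 1 TPM in both groups. Of the 3 members 0 were called by limma on the deposited scale and 3 had an unadjusted p under 0.05. By voom on fragments 1 was called higher and 0 lower.

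RNA of the mitochondrial genome took a larger share. All 15 genes of this list were members, 14 had coefficients above 0 as deposited and 15 after scaling, with medians of 0.45 and 0.92. The ribosomal RNA mt-Rnr1 rose from 2449.6, 2428 and 2537 TPM to 10180.0, 11182 and 11010.0 TPM (2.12, SE 0.038) and mt-Rnr2 from 6474, 6258 and 6615 TPM to 13780.0, 15099 and 14809 TPM (1.17, SE 0.038). The libraries were depleted of ribosomal RNA, and the part of that step was not tested. Of the messenger RNAs mt-Nd2 had the highest coefficient, 0.91, from 5726, 5698 and 6079 TPM to 10421, 11426 and 10986 TPM, and mt-Cytb the lowest, -0.16 and 0.30 as deposited and after scaling. The 5 protein-coding genes that gained most TPM were mt-Nd1, mt-Nd2, mt-Co2, mt-Co1 and mt-Nd6, none of them called on the deposited scale. Those that lost most were Cldn4, Actb, mt-Cytb, Krt18 and Krt15, and Actb, encoding beta-actin, went from 4983, 5075 and 4983 TPM to 3129, 3191 and 3134 TPM (-0.67, SE 0.029, and -0.21 after scaling).

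**Figure D4:**
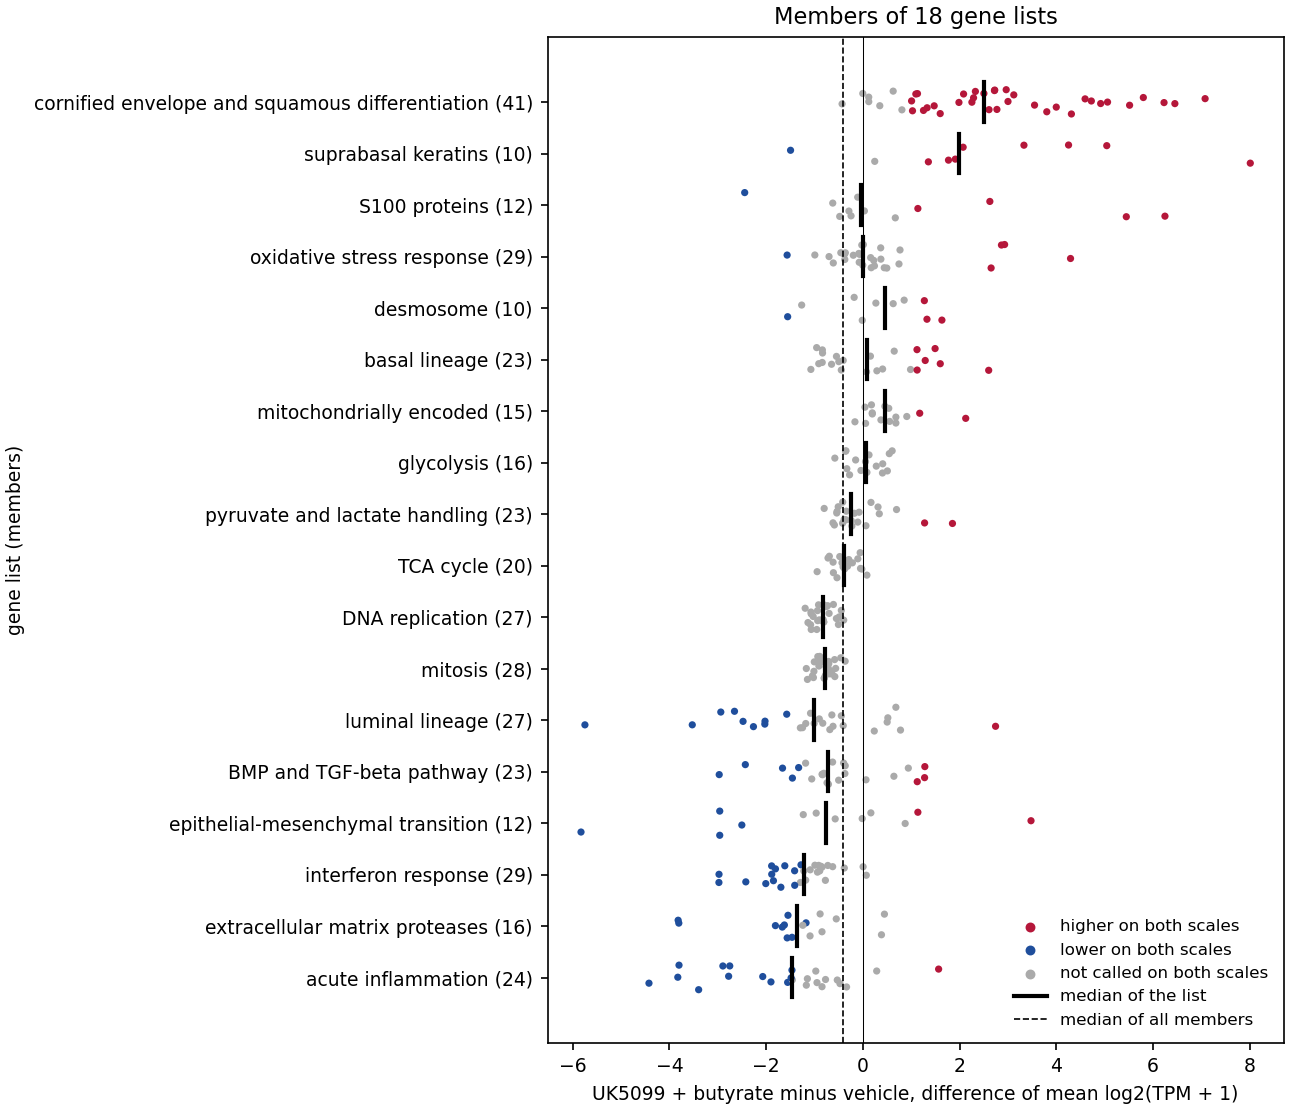
Combination minus vehicle coefficients (x axis, difference of mean log2(TPM + 1)) of the members of 18 gene lists (y axis, number of members in brackets). Each dot is a gene, coloured where it rose or fell on both scales, the thick bar is the median of the list and the dashed line the median of all members, -0.41. The squamous list sits to the right with a median of 2.50, and the inflammatory list, at -1.46, sits to the left.

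The combination was also set against each treatment alone, to see which genes went past both. These comparisons share the 3 combination samples. Against UK5099 alone 203 members were higher and 280 lower on the deposited scale (3.43% called in all), and 304 and 122 after scaling. Against butyrate alone 136 were higher and 86 lower (1.57%), and 177 and 67 after scaling. The balance against UK5099 thus depended on the scale. On the deposited scale 53 genes were called higher (0.376% of the members) and 34 lower (0.241%) against vehicle, UK5099 and butyrate alike. Of these, 53 and 31 were also called against vehicle after scaling. Without combination replicate 1, 44 of the 53 and 31 of the 34 remained.

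Of the 41 squamous members 12 were higher than with either treatment alone. Over all 41 the median coefficient against vehicle was 2.17 with UK5099 alone and 0.87 with butyrate alone, beside 2.50 with both, as deposited. Over the 10 suprabasal keratins the medians were 1.95, 1.28 and 1.99. These medians carry unlike shifts, since the median over all members was -0.12, -0.30 and -0.41 in the same order. Of the 41 squamous members 14 had entered through the combination alone, where they were high. Gene by gene, the combination minus UK5099 difference had a median of 0.46 in the squamous list and 0.36 in the keratins. A rise in both lists was thus present with UK5099 alone as well. The genes named next were picked from those that went past both treatments. Rptn had means of 5.67 TPM with UK5099, 5.71 TPM with butyrate and 78.997 TPM with both, and its coefficient was 3.58, SE 0.16, against UK5099 and 3.56, SE 0.16, against butyrate. Nccrp1 had 199, 228 and 525 TPM, with smaller coefficients of 1.39, SE 0.19, and 1.17, SE 0.19. Calm4 had 22.8, 4.85 and 95.3 TPM (2.03, SE 0.16, and 4.04, SE 0.16). Outside the list the protein-coding genes of this kind with the highest coefficients against vehicle were Cstdc5, Krt6b and S100a9. Cstdc5 had 46.4, 21.3 and 389 TPM (3.03, SE 0.094, and 4.12, SE 0.094), and Krt6b had 88.9, 8.52 and 384 TPM (2.09, SE 0.094, and 5.33, SE 0.094). For S100a9 the means were 30.3, 13.9 and 170.1 TPM (2.45, SE 0.073, and 3.52, SE 0.073).

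Of the genes that were lower than with either treatment alone, Clu had means of 52.8 TPM with UK5099, 25.3 TPM with butyrate and 8.52 TPM with both (-2.50, SE 0.041, and -1.46, SE 0.041). Mmp7 had 127, 177 and 19.7 TPM (-2.63, SE 0.047, and -3.10, SE 0.047), so each single treatment left it well above the combination. Lcn2 had 62.4, 70.3 and 14.4 TPM (-2.05, SE 0.096, and -2.22, SE 0.096), and Cd14 had 57.6, 30.7 and 14.5 TPM (-1.92, SE 0.060, and -1.03, SE 0.060). These values are on the deposited scale, where Cd14 was only just past the limit of 1 against butyrate. Plekhs1, with 2.74, 2.53 and 0.332 TPM, and Mia, with 5.44, 3.998 and 0.734 TPM and 1 of 12 low values whole, complete the 6 lowest. Krt8 was also in this group, with 364, 275 and 119 TPM, as were 5 inflammatory genes.

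The Mmp7 promoter, at chr9:7691840-7692139, plus strand on GRCm38.p6, is shown as that of a gene that was lower than with either treatment alone, and because the letters sought in the squamous genes occur in it too. Capitals again mark TATAA and TGANTCA.
Mmp7: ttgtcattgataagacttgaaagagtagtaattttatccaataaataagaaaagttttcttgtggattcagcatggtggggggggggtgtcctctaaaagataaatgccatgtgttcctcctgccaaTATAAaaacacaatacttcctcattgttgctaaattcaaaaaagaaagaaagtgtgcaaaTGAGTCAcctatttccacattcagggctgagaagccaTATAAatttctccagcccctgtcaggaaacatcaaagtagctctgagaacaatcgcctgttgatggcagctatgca
TGANTCA began 63 bases and TATAA 26 bases before the start, with a further TATAA beginning 123 bases before it. Among the 269 genes that rose on both scales and had a promoter, 42 (15.6%) held TGANTCA, and among 281 that fell 30 (10.7%) did, so the letters occur in genes that went either way.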

How the data were processed

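RNA of 12 mouse prostate organoid samples, 3 per treatment, was sequenced. Per the labels, libraries were stranded, paired-end and made with the KAPA RNA Hyper kit after ribosomal RNA depletion and mRNA enrichment. The authors deposited 1 table of TPM for 24674 genes. The submitters' processing notes name STAR 2.7.9a, Partek and GRCm39, whereas the study's methods name another STAR version, RSEM and the preceding mouse assembly. Of 23888 nuclear genes 2.08% had the start and end of a GRCm38 annotation (100% of 25 mitochondrial genes), so gene coordinates are not printed and promoters are RefSeq's own. Each TPM was divided by the whole genomic span (median 11598 bp), introns included, which lowers genes with long introns and makes levels hard to compare between genes. Whole fragments were recovered from the steps of low TPM within 0.02 of a whole number. Among low values of protein-coding genes, those under 1000 fragments, between 75.3% and 76.6% were whole in each sample. Where only a few low values of a gene are whole, its reads are uncertain, since they may be shared with other genes, which was not tested.

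From the deposited TPM, log2(TPM + 1) of all 12 samples was fitted with limma 3.58.1 in R 4.3.3 (both treatments and their interaction) on 24674 genes, with Benjamini-Hochberg adjustment. A gene was called at an adjusted p under 0.01 and a coefficient past 1. Depth (33252102 to 43499092 fragments) limits the precision of low genes, and intervals and floors cover counting error only. Python 3.11.15 and matplotlib 3.10.9 made tables and figures. On simulated data 47 of 50 and 41 of 50 genes changed by -3 and -2, 47 of 50 and 50 of 50 changed by 2 and 3, and 0 of 24474 unchanged genes were called in this comparison. All simulated samples had a spread set to that of the vehicle samples. They held neither the shift of the deposited scale nor a sample like combination replicate 1. The check therefore does not give the rate of false calls in the data.

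Members, lists and rules were chosen with earlier results of these data known. Named were the 12 highest and 12 lowest protein-coding genes called on both scales without overlap, up to 5 called genes per list with the largest coefficients, all basal, luminal, and pyruvate and lactate genes (a few list genes, counted in the totals, are not reported here), the 6 highest and 6 lowest that went past both single treatments, and the 5 largest TPM gains and losses. A further 38 genes, among them Sprr1a, Crnn, Ivl, Flg, Tgm1, Il33, Ifit1, Id1, Mmp3, Cdkn1a and all genes under other observations, and the 6 promoters were chosen after their values were seen. Alternatives were other pseudocounts, scalings and filters, voom on fragments, the 6 samples alone, a replicate block, another prior and leaving out each sample.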

Additional observations from a re-analysis of the deposited data

How the results depend on the processing

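The 1585 called genes became 3292 with a pseudocount of 0.1, 653 with a pseudocount of 5 and 3437 with voom on recovered fragments, and the 87 genes past both single treatments became 231, 44 and 331. These counts are over all genes tested. Among the 14102 members the calls were 2483, 653 and 1784, and the genes past both treatments 176, 44 and 184. Other settings kept both counts within 1.5 times, from 1113 with quantile normalisation to 1585 with a trended and robust prior, and leaving out 1 sample at a time gave 1528 to 1643 and 77 to 97. Genes past both treatments have no value when only the 6 samples of the comparison are fitted. The share of called genes that were higher, 27.9% as deposited, was 63.8% with median of ratios, 58.9% with quantile normalisation, 56% with voom and 42.3% with nuclear protein-coding genes only. Of 166 called genes named here 108 kept call and direction in every setting and 0 reversed. Calls were lost by 43 genes with a pseudocount of 5, 34 with quantile normalisation, 33 with median of ratios, 25 with voom and 16 with nuclear protein-coding genes only. Without combination replicate 1 the calls of Klk11, Mad2l1, Kif20a, Foxm1, Cdkn1b and H2bc4 were lost, those of Cdh1 and Foxm1 without combination replicate 2, Cdh1 also without vehicle replicate 1 and Cdkn1b without vehicle replicate 3. Of 71 uncalled genes named here 55 stayed so in every setting. With the replicate number as a block 1580 genes were called. Same-numbered vehicle and combination samples did not deviate together (r = -0.022, 0.0036 and 0.0078). This cannot show whether they were paired, since matched samples with little shared deviation would give the same. The causes of these changes were not tested.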

Other observations

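Outside the lists, and chosen after their values were seen, several genes went past both single treatments. Fabp4, a fatty acid-binding protein best known from fat cells, had 0.36996, 0.382 and 0.374 TPM in vehicle and 22.3, 16.6 and 18.6 TPM in the combination, with means of 1.82 TPM for UK5099 and 2.21 TPM for butyrate. Thbs2, a matrix glycoprotein, had 0.531, 0.5696 and 0.609 TPM and 46.3, 49.5 and 51.3 TPM (4.99, SE 0.046), opposite in direction to Thbs1. Slpi, a secreted protease inhibitor of mucosal epithelia, had 0.685, 0.761 and 0.681 TPM and 17.8, 17.3 and 17.1 TPM (3.43, SE 0.032). The cytokine Il36g (3.71, SE 0.066), the homeobox factors Pitx1 (2.43, SE 0.040) and Dlx5 (2.56, SE 0.094) and the membrane glycoprotein Gpnmb (3.06, SE 0.033) were higher as well.

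Lower than with either treatment were Tfcp2l1, a Grainyhead-family transcription factor, from 6.47, 6.43 and 5.83 TPM to 0.777, 0.834 and 0.826 TPM (-1.998, SE 0.066), and Slc12a2, a sodium, potassium and chloride cotransporter, from 55.3, 56.6 and 53.2 TPM to 3.88, 4.903 and 4.58 TPM (-3.37, SE 0.059). Glul, glutamine synthetase, went from 87.5, 89.1 and 87.3 TPM to 27.98, 30.3 and 30.3 TPM (-1.54, SE 0.029), with means of 80.1 TPM for UK5099 and 82.98 TPM for butyrate.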
